A study of Mus musculus with 12 samples.

Results

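Claudins are the membrane proteins that set which ions pass between the cells of an epithelium, and 10 of them that mark segments of the nephron were followed here: Cldn1, Cldn2, Cldn3, Cldn4, Cldn7, Cldn8, Cldn10, Cldn14, Cldn16 and Cldn19. They were picked by symbol out of 23183 gene symbols per library, with earlier results of these data known, and all 10 were found in all 12 libraries. The libraries hold RNA of kidney cortex taken 7 days after unilateral ureteral obstruction (UUO), a surgery that ties off 1 ureter and leaves the contralateral kidney (CL) draining. There were 4 groups of 3 libraries: wild-type mice, CL (Acot12+/+ CL), wild-type mice, obstructed (Acot12+/+ UUO), Acot12 knockout mice, CL (Acot12-/- CL) and Acot12 knockout mice, obstructed (Acot12-/- UUO). Per the study's methods the mice were males of the C57BL/6N strain aged 6 to 7 weeks at surgery, and the knockout is global, from a mutant Acot12 allele made with an engineered nuclease (RGEN). Acot12 encodes an enzyme that splits acyl-CoA into a fatty acid and CoA. The CL kidney comes from a mouse that also carries an obstructed kidney, so no group is a kidney of an unoperated mouse. The labels name the libraries of a group as separate samples and number them without naming mice, so that p-values measure the spread between these samples.

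Tight junctions seal the gap between neighbouring epithelial cells, and the claudins in them form either pores or barriers. Along the nephron each segment has its own set: Cldn2 forms the cation and water pore of the proximal tubule, Cldn10 lines the proximal tubule and the thick ascending limb in different isoforms, Cldn16 and Cldn19 together carry calcium and magnesium across the thick ascending limb, and Cldn14 blocks that route. Cldn3, Cldn4, Cldn7 and Cldn8 belong mainly to the distal nephron and collecting duct, where they keep sodium from leaking back and pass chloride, and Cldn1 is best known from the parietal epithelium of Bowman's capsule. Claudins of the collecting duct are also made by the urothelium, which lines the renal pelvis.

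Values are FPKM, the number of fragments on a gene relative to the length of its transcript and the depth of the library, so that levels may be set side by side between genes. The depth read from the steps of low FPKM values ran, in units of M (mega) fragments, from 12.4 to 14.4 for wild-type CL libraries, from 21.0 to 22.9 for wild-type UUO libraries, from 14.2 to 16.1 for knockout CL libraries and from 18.7 to 21.9 for knockout UUO libraries. Whether this depth is the number of fragments sequenced or a library size scaled by the provider cannot be told from the values. Acot12 itself read 52.7 to 78.1 FPKM in Acot12+/+ CL and 6.80 to 9.14 FPKM in Acot12-/- CL libraries, and 9.98 to 21.2 against 1.80 to 3.86 FPKM in UUO libraries, so each library matched its genotype label. Markers of the proximal tubule summed to 2064 to 4269 FPKM in CL libraries and those of the thick ascending limb to 1528 to 2936 FPKM, and no marker of any nephron segment was listed at 0 there. Acot12-/- CL replicate 2 stood apart from the other libraries of its group (lowest Pearson r of log2 values with a replicate 0.942, against 0.983 or more within both Acot12+/+ groups), and the claudin differences that it moved most are given with and without it. In these bulk samples, fewer cells of a type and less RNA per cell cannot be told apart.

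Differences were tested with limma on log2(FPKM + 1) over 13243 genes, and a log2 difference below is UUO minus CL or Acot12-/- minus Acot12+/+ on that scale. A gene was called when its Benjamini-Hochberg adjusted p over all genes tested was under 0.05. The scale matters for the smaller differences: the summed FPKM of all genes was 799670 to 977981 in CL and 491078 to 686425 in UUO libraries. Scaling every library to the same total moved the median log2 difference of all genes by 0.62 in Acot12+/+ and 0.47 in Acot12-/- kidneys, and changes below are relative to FPKM as deposited, for which the median was within 0.01 of 0.

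The claudins that moved together in the data sit on several chromosomes. In GRCm38, Cldn4 lies at chr5:134945119-134946934 on the minus strand and Cldn3 at chr5:134986214-134987472 on the plus strand, with 39.3 kb between them. Cldn7 lies at chr11:69964779-69967885, Cldn10 at chr14:118787908-118875489, Cldn2 at chrX:139800828-139811386 and Cldn19 at chr4:119255414-119262438, all on the plus strand. Chromosome 16 holds 4 members: Cldn1 (chr16:26356642-26371841, minus), Cldn16 (chr16:26463135-26482765, plus, 91.3 kb from Cldn1), Cldn8 (chr16:88560828-88563183, minus) and Cldn14 (chr16:93919031-94008837, minus). All 10 are annotated as protein coding. An exon of an antisense gene overlaps Cldn3 (Wbscr25) and Cldn19 (Gm12927). The library kit keeps the strand, but whether the counting used it is not given in the sources used here, so reads of these pairs may be mixed.

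Promoter sequences are shown for the claudins with the widest differences between UUO and CL kidneys, since Cldn1, Cldn3, Cldn4 and Cldn7 were higher together and Cldn10 was lower. RefSeq windows of GRCm38.p6 matched 9 of the 10 members with 14 annotated starts. Each run below holds the 250 bases before an annotated start, 5′ to 3′ on the strand of the gene. Capitals mark matches, on either strand, of 3 motifs: CAGGTG, the E-box bound by Snai and Zeb proteins, GTTAAT, the half-site of HNF1, and TGANTCA, the motif of AP1 factors. None of the capital stretches shown overlaps another.
Cldn1 promoter: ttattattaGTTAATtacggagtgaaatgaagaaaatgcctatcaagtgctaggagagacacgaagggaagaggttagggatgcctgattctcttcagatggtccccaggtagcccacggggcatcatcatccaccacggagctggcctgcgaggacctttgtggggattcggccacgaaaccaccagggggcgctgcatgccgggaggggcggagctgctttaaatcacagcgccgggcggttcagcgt
Cldn3 promoter: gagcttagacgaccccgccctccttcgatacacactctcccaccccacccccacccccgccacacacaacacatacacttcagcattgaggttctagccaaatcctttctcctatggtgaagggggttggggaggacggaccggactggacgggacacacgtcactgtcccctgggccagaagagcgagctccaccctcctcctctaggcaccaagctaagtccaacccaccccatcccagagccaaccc
Cldn4 promoter: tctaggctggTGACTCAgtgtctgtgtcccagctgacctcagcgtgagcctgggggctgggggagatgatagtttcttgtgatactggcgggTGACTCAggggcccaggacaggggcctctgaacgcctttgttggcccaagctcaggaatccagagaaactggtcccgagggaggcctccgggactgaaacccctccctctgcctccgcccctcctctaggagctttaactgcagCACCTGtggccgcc
Cldn7 promoter, upstream start: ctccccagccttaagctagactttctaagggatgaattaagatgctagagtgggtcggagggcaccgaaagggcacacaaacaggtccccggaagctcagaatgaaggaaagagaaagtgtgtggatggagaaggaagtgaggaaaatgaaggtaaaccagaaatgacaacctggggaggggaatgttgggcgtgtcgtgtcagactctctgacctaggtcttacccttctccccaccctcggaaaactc
Cldn10 promoter, upstream start: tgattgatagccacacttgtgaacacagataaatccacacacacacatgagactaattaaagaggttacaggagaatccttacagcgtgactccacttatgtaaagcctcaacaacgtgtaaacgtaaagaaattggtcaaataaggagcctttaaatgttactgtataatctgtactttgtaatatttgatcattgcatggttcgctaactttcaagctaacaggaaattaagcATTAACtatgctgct
Cldn10 promoter, downstream start: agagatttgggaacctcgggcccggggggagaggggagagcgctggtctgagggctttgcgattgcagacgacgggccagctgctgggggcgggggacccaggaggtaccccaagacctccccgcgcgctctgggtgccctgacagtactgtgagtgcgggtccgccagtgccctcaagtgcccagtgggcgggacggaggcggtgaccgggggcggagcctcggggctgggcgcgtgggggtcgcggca
The Cldn1 window is chr16:26371840-26372089, that of Cldn3 chr5:134985964-134986213, that of Cldn4 chr5:134946935-134947184 and that of Cldn7 chr11:69964529-69964778. The starts of Cldn10 lie 67.1 kb apart, at windows chr14:118787621-118787870 and chr14:118854700-118854949, and the deposited value is a single level per gene, so transcripts from the 2 starts were not separated. The upstream window of Cldn10 holds 36.0% G and C and the downstream window 72.4%, against a median of 52.4% over 32851 windows. The Cldn4 window holds TGACTCA at 240 and 158 bases before the start and CACCTG at 14 bases. The window of the downstream start of Cldn7, chr11:69965171-69965420, is not printed. It holds CACCTG at 97 and CAGGTG at 57 bases before that start. TGANTCA was found in 6.75% of all windows and CAGGTG in 17.2%. Among the 14 starts of members, CAGGTG or its reverse complement was found at those of Cldn4, the downstream start of Cldn7 and 1 start of Cldn14, and GTTAAT, which 6.43% of all windows hold, at 1 start each of Cldn1, Cldn10 and Cldn14. AACCNGTT, the motif of Grainyhead-like factors, was found in no window of a member and in 1.79% of all windows. Such a match describes the letters of a window.

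In the CL kidney of wild-type mice, Cldn10 and Cldn2 made up most of the claudin transcripts. Cldn10 stood highest at 356 ± 45.4 FPKM (SD, n = 3), Cldn2 followed at 157 ± 8.62 FPKM and Cldn8 at 48.7 ± 7.66 FPKM, and in each of these steps every library of the higher gene lay above every library of the lower. Below them came Cldn19 (19.9 ± 5.35 FPKM), Cldn7 (19.8 ± 6.62 FPKM), Cldn16 (14.6 ± 4.60 FPKM), Cldn3 (12.1 ± 1.49 FPKM), Cldn4 (10.2 ± 5.72 FPKM) and Cldn1 (7.07 ± 1.06 FPKM), where neighbours in the order overlapped. Cldn14 was at the limit of detection. In Acot12+/+ UUO kidneys the order was another: Cldn2 (122 FPKM), Cldn7 (91.6 FPKM), Cldn4 (85.2 FPKM) and Cldn10 (81.4 FPKM) overlapped at the top, and Cldn3 (64.0 FPKM) and Cldn1 (57.7 FPKM) stood above Cldn8 (31.9 FPKM).

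**Figure D1:**
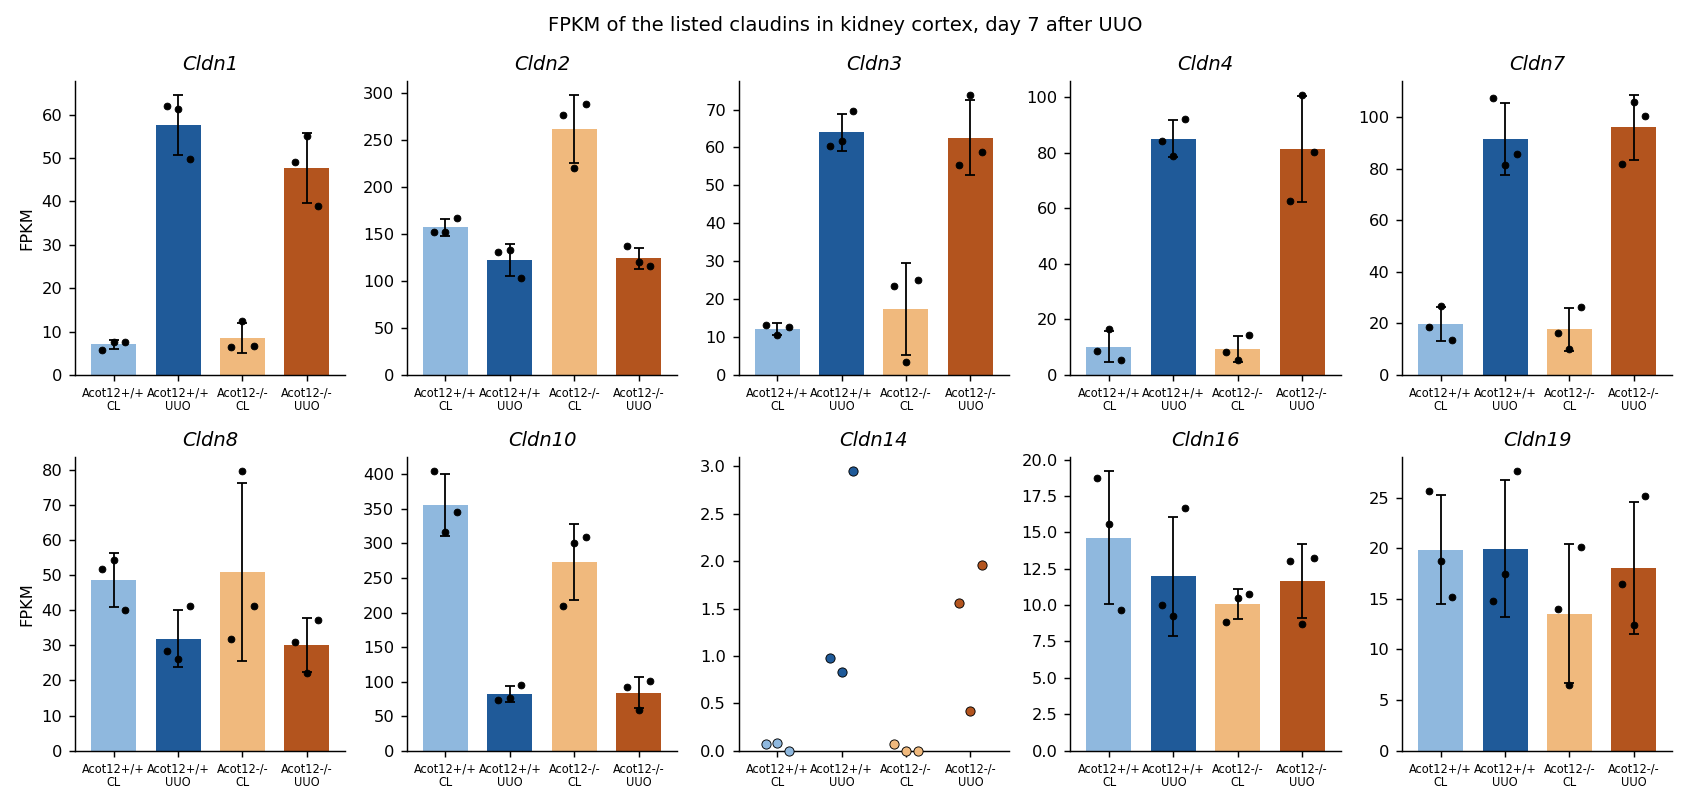
FPKM of each claudin in the 12 libraries, 1 panel per gene with its own axis from 0; points are libraries, bars are group means and error bars are SD (n = 3), and the Cldn14 panel shows points alone. In both genotypes every UUO library lies above every CL library for Cldn1, Cldn3, Cldn4, Cldn7 and Cldn14, and below every CL library for Cldn2 and Cldn10. The share of all genes without overlap was not counted.

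With UUO, 5 of the 10 claudins were called higher and 1 lower in Acot12+/+ kidneys, where 23.6% of all genes tested were called higher and 23.9% lower. In Acot12-/- kidneys 5 were called higher and 2 lower, beside 26.6% and 27.2% of all genes. Over both genotypes, with genotype as a term, 5 were called higher and 3 lower, beside 31.3% and 32.1%. The median log2 difference of the 10 members was 0.60 in Acot12+/+ and 0.79 in Acot12-/- kidneys beside 0.01 and -0.01 over all genes, with members far from 0 on both sides. In all 6 pairs of CL and UUO libraries of the same genotype and number, Cldn1, Cldn3, Cldn4, Cldn7 and Cldn14 were higher and Cldn2 and Cldn10 lower in the UUO library. How many of all genes moved 1 way in every pair was not counted. When libraries were scaled to an equal total FPKM, 56.7% of genes were called higher and 7.7% lower in Acot12+/+ and 46.7% and 11.5% in Acot12-/- kidneys, against 49.7% and 49.5% of all calls being higher as deposited and 88.0% and 80.3% under that scaling. Of the members, 5 were then called higher and 1 lower in Acot12+/+, 7 and 2 in Acot12-/- kidneys and 7 and 1 over both genotypes, with Cldn16 and Cldn19 added to those called higher in the latter 2 comparisons. All 10 members passed the filter on low values, Cldn14 through UUO libraries alone, so its call is no support for a rise of the list.

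Of the collecting duct claudins, Cldn4 had the largest difference. Cldn4, a barrier to sodium that pairs with Cldn8 to pass chloride, read 8.69, 16.5 and 5.36 FPKM in Acot12+/+ CL and 84.4, 78.8 and 92.2 FPKM in Acot12+/+ UUO libraries. In Acot12-/- mice it read 8.28, 5.29 and 14.5 FPKM in CL and 62.7, 100.9 and 80.3 FPKM in UUO libraries. The groups did not overlap in either genotype, and the means stood 8.36-fold and 8.69-fold apart. The log2 difference was 3.07 (SE 0.36, limma adjusted p = 5.43e-05) in Acot12+/+ and 3.06 (adjusted p = 3.1e-05) in Acot12-/- kidneys.

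Cldn7, found along the distal nephron and on the lateral membrane of its cells, read 18.7, 26.8 and 13.7 FPKM in Acot12+/+ CL and 107, 81.6 and 85.8 FPKM in Acot12+/+ UUO libraries. In Acot12-/- kidneys the values were 16.4, 10.01 and 26.5 FPKM in CL and 82.02, 105.9 and 100.4 FPKM in UUO libraries. Every UUO library was thus above every CL library, and Cldn7 rose by 2.20 (adjusted p = 0.000144) and 2.47 (adjusted p = 4.02e-05) on the log2 scale. Cldn3, a barrier-forming claudin of the distal nephron, read 13.2, 10.4 and 12.7 FPKM in Acot12+/+ CL and 60.5, 61.8 and 69.6 FPKM in Acot12+/+ UUO libraries, a log2 difference of 2.31 (SE 0.51, adjusted p = 0.00288). In Acot12-/- mice the CL libraries scattered widely at 23.6, 3.38 and 25.1 FPKM, and the UUO libraries read 55.3, 73.8 and 58.7 FPKM. The low CL value is that of replicate 2: the log2 difference of Cldn3 in Acot12-/- kidneys was 2.16 (adjusted p = 0.00348) with that library and 1.32 without it, and Cldn3 stayed called.

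Cldn8, the partner of Cldn4 in the collecting duct, was not among the genes called higher. It read 51.8, 54.4 and 40.0 FPKM in Acot12+/+ CL and 28.4, 26.1 and 41.2 FPKM in Acot12+/+ UUO libraries, and 31.9, 79.8 and 41.3 against 31.1, 22.1 and 37.2 FPKM in Acot12-/- mice, so that the groups overlapped in both genotypes. Its log2 difference was -0.61 (95% interval -1.29 to 0.06, adjusted p = 0.122) in Acot12+/+ and -0.66 (interval -1.34 to 0.01, adjusted p = 0.0893) in Acot12-/- kidneys, and over both genotypes it was called lower at -0.64 (adjusted p = 0.0168). Scaling to an equal total FPKM turned its Acot12+/+ difference to 0.10 and ended the call over both genotypes (-0.01), and without Acot12-/- CL replicate 2, the 79.8 FPKM library, the Acot12-/- difference was -0.29. Within a library, where scaling has no effect, Cldn4 read 13.4 to 30.3 FPKM per 100 FPKM of Cldn8 in Acot12+/+ CL and 224 to 302 FPKM in obstructed wild-type libraries, and 6.62 to 35.1 against 202 to 457 in Acot12-/- libraries.

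Cldn1, a barrier claudin, had the difference with the smallest error relative to its size among the 10. It read 5.85, 7.67 and 7.70 FPKM in Acot12+/+ CL and 61.9, 61.4 and 49.7 FPKM in Acot12+/+ UUO libraries. In Acot12-/- mice it read 6.37, 12.4 and 6.57 FPKM in CL and 49.0, 55.2 and 39.0 FPKM in UUO libraries, with no overlap between the sides in either genotype. Cldn1 rose by 2.86 (SE 0.23, adjusted p = 5.24e-06) and 2.41 (adjusted p = 7.42e-06) on the log2 scale. Of 8 markers of podocytes and parietal epithelium, 3 were called higher and 1 lower in each genotype, with a median log2 difference of 0.41 in Acot12+/+ and 0.40 in Acot12-/- kidneys. Their sum was 85.6 to 152 FPKM in CL and 212 to 297 FPKM in UUO libraries, and Cp, the gene of ceruloplasmin, led with 3.65 and 4.22. The part of these cells in the Cldn1 level was not tested.

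**Figure D2:**
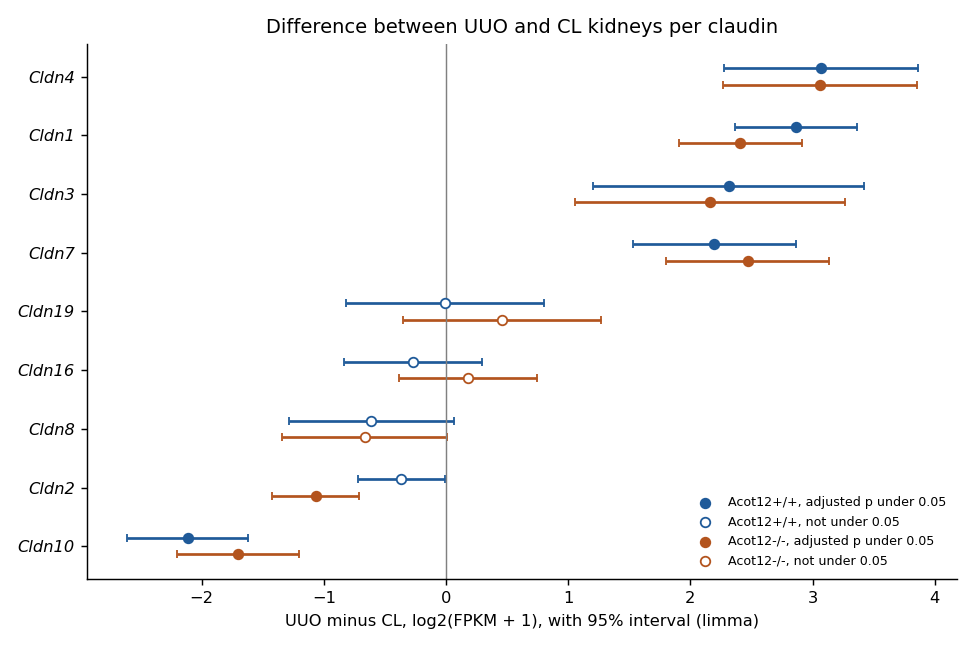
Log2 difference between UUO and CL kidneys for 9 claudins in Acot12+/+ (blue) and Acot12-/- (brown) mice, with 95% intervals from limma; filled points have an adjusted p under 0.05, and Cldn14 is not drawn because 3 CL libraries list it at 0. Cldn4, Cldn1, Cldn3 and Cldn7 lie above 0 and Cldn10 below 0 in both genotypes, while the intervals of Cldn16 and Cldn19 span 0.

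The rise of Cldn3, Cldn4 and Cldn7 was opposite in direction to the markers of the principal cell of the collecting duct. None of the 10 principal cell markers was called higher, and 8 in Acot12+/+ and 5 in Acot12-/- kidneys were called lower, with medians of -1.17 and -0.89, and 3 in each genotype stayed called lower under equal total FPKM. The water channel genes Aqp4 (-2.26 and -1.79) and Aqp3 (-1.70 and -1.45) and Scnn1a, a subunit of the epithelial sodium channel (-1.40 and -1.47), fell in both genotypes. Markers of intercalated cells were called lower for 7 of 9 in Acot12+/+ and 6 of 9 in Acot12-/- kidneys. Of all genes tested, 23.9% in Acot12+/+ and 27.2% in Acot12-/- kidneys were called lower, and 7.7% and 11.5% under equal total FPKM. Summed over the list, principal cell markers read 413 to 598 FPKM in Acot12+/+ CL and 212 to 311 FPKM in Acot12+/+ UUO libraries, and in Acot12-/- mice the ranges overlapped at 348 to 597 and 179 to 439 FPKM.

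Markers of injured tubule cells and of urothelium moved in the direction of these claudins. Of 11 markers of injured tubule cells, 10 were called higher in Acot12+/+ and 11 in Acot12-/- kidneys, with medians of 3.13 and 3.09, led by Havcr1 (7.33 and 7.24), which encodes the kidney injury molecule. The summed level of these markers was 1147 to 5204 FPKM in CL and 15430 to 18403 FPKM in UUO libraries. The part of injured cells in the claudin levels was not tested. Of 8 urothelial markers, 2 were called higher in Acot12+/+ and 8 in Acot12-/- kidneys, and none was listed at 0 in any library. All 8 had a positive log2 difference in each genotype. Of all genes tested, 23.6% in Acot12+/+ and 26.6% in Acot12-/- kidneys were called higher, and the Acot12+/+ urothelial count is near its share. Whether any of the 8 urothelial markers passed the filter on low values through UUO libraries alone was not counted. Their sum was 7.1 to 70.6 FPKM in Acot12+/+ CL, 17.1 to 163.6 FPKM in Acot12+/+ UUO, 1.6 to 18.5 FPKM in Acot12-/- CL and 112.3 to 174.5 FPKM in Acot12-/- UUO libraries.

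Of the UUO libraries, Acot12+/+ UUO replicate 3 had little urothelial signal, at 17.1 FPKM over the 8 markers, and its Cldn4 and Cldn7 together came to 178 FPKM. The other UUO libraries had 112.3 FPKM or more of these markers and 145 to 207 FPKM of Cldn4 and Cldn7. Acot12+/+ CL replicate 2, at 70.6 FPKM of urothelial markers, held 43.3 FPKM of Cldn4 and Cldn7, the highest value among the CL libraries. Acot12-/- CL replicate 3 held nearly as much, 41.0 FPKM, at 9.27 FPKM of urothelial markers. Acot12-/- CL replicate 2 held the least, 15.3 FPKM, at 18.5 FPKM of these markers. The part of urothelium in the Cldn4 and Cldn7 levels was not tested. Without Acot12+/+ UUO replicate 3 the log2 difference was 3.01 for Cldn4 and 2.24 for Cldn7, and without Acot12+/+ CL replicate 2 it was 3.45 and 2.43.

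**Figure D3:**
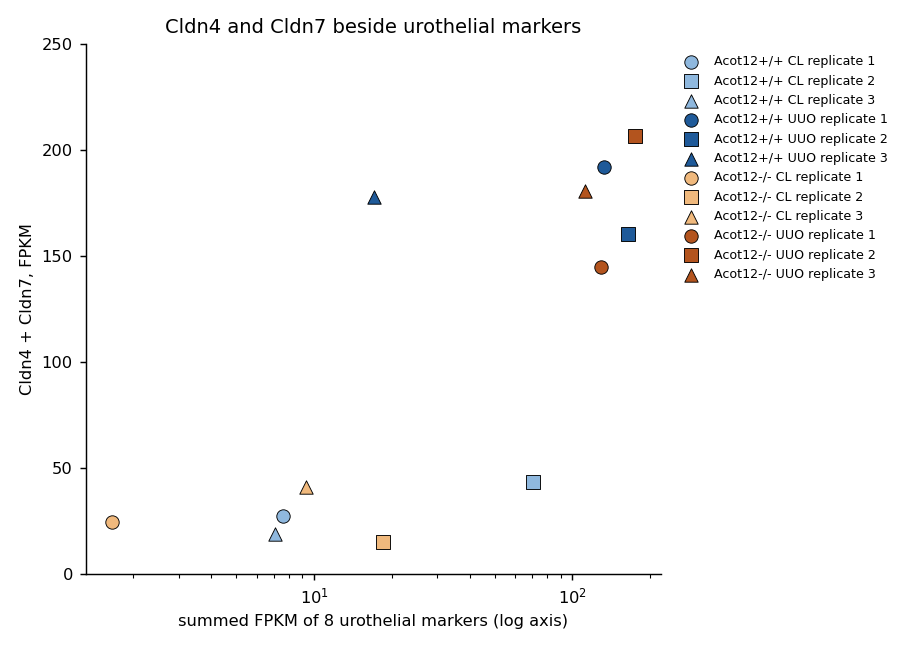
Summed FPKM of 8 urothelial markers (x, log axis) against the sum of Cldn4 and Cldn7 in FPKM (y, from 0) for the 12 libraries, coloured by group and shaped by replicate. The 6 UUO libraries lie between 145 and 207 FPKM of Cldn4 and Cldn7, including Acot12+/+ UUO replicate 3 at 17.1 FPKM of urothelial markers, and the 6 CL libraries lie at or below 43.3 FPKM.

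Cldn10, the most abundant claudin of the Acot12+/+ CL kidney, was the only member called lower in each genotype on its own. It read 405, 316 and 345 FPKM in Acot12+/+ CL and 73.0, 76.7 and 94.6 FPKM in Acot12+/+ UUO libraries, a mean 4.37-fold higher in CL kidneys. In Acot12-/- mice it read 209, 300.0 and 309 FPKM in CL and 91.4, 59.1 and 101.5 FPKM in UUO libraries. The sides did not overlap, and Cldn10 fell by 2.11 (SE 0.23, adjusted p = 3.15e-05) in Acot12+/+ and 1.70 (adjusted p = 7.02e-05) in Acot12-/- kidneys on the log2 scale.

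Cldn2 was called lower in Acot12-/- kidneys and over both genotypes, and its change was not called different between the genotypes. It read 152, 151 and 167 FPKM in Acot12+/+ CL and 131, 132 and 103 FPKM in Acot12+/+ UUO libraries, without overlap, yet the log2 difference of -0.37 (95% interval -0.72 to -0.01) did not pass the test (adjusted p = 0.0837) and turned to 0.36 when libraries were scaled to an equal total. In Acot12-/- mice Cldn2 read 276, 220 and 288 FPKM in CL and 137, 120 and 115 FPKM in UUO libraries and fell by 1.07 (SE 0.16, adjusted p = 0.000186). Over both genotypes it fell by 0.72 on the log2 scale (adjusted p = 0.000863), a difference of -0.08 under equal total FPKM. The UUO libraries of the genotypes overlapped, at 103 to 132 and 115 to 137 FPKM, and the CL libraries did not. Within a library, Cldn2 stood at 37.5 to 48.3 FPKM per 100 FPKM of Cldn10 in Acot12+/+ CL, at 73.4 to 132 in Acot12-/- CL, at 109 to 179 in Acot12+/+ UUO and at 114 to 202 in Acot12-/- UUO libraries.

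Cldn2 had a smaller log2 difference than most markers of its segment. Of 10 proximal tubule markers 9 were called lower in Acot12+/+ and 10 in Acot12-/- kidneys, beside 23.9% and 27.2% of all genes. The markers had medians of -1.92 and -2.52. The list includes Slc22a8 (-3.03 and -3.88), an organic anion transporter, and Slc7a13 (-4.42 and -3.79), an amino acid transporter. Lrp2, which encodes the endocytic receptor megalin, fell by 2.40 and 2.51. Cldn2 stood at 129 to 155 FPKM per 100 FPKM of Lrp2 in Acot12+/+ CL and at 423 to 707 in Acot12+/+ UUO libraries, and at 136 to 272 against 412 to 850 in Acot12-/- libraries.

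Cldn16 and Cldn19, the calcium and magnesium pore of the thick ascending limb, were not called in either genotype. Cldn16 read 18.7, 15.6 and 9.65 FPKM in Acot12+/+ CL, 9.98, 9.25 and 16.7 FPKM in Acot12+/+ UUO, 8.87, 10.5 and 10.8 FPKM in Acot12-/- CL and 13.02, 8.72 and 13.2 FPKM in Acot12-/- UUO libraries. Cldn19 read 25.7, 18.8 and 15.1 FPKM in Acot12+/+ CL, 14.8, 17.4 and 27.7 FPKM in Acot12+/+ UUO, 13.98, 6.47 and 20.1 FPKM in Acot12-/- CL and 16.5, 12.4 and 25.2 FPKM in Acot12-/- UUO libraries. The sides overlapped in every case. For Cldn16 the log2 difference was -0.27 (95% interval -0.83 to 0.30) in Acot12+/+ and 0.18 (interval -0.39 to 0.74) in Acot12-/- kidneys, and for Cldn19 it was -0.01 (interval -0.82 to 0.80) and 0.46 (interval -0.35 to 1.27). The Acot12-/- value of Cldn19 rests on CL replicate 2, the library at 6.47 FPKM, and was 0.04 without it. With libraries scaled to an equal total FPKM, the Acot12+/+ differences turned to 0.41 and 0.69 without passing the test, and in Acot12-/- kidneys both genes were called higher, at 0.68 for Cldn16 (adjusted p = 0.0229) and 0.97 for Cldn19 (adjusted p = 0.0173), which is 0.22 and 0.51 above the median of all genes on that scaling. Over both genotypes the scaling gave 0.55 for Cldn16 (adjusted p = 0.00762) and 0.83 for Cldn19 (adjusted p = 0.00298).

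The markers of the thick ascending limb fell. All 10 were called lower in both genotypes, with medians of -1.88 in Acot12+/+ and -1.67 in Acot12-/- kidneys, and 8 of 10 were called lower in each genotype under equal total FPKM. The shares of all genes called lower were 23.9% and 27.2% as deposited and 7.7% and 11.5% under that scaling. Egf, which encodes epidermal growth factor, fell by 4.85 and 4.40, and Slc12a1, the sodium, potassium and chloride cotransporter of the segment, fell by 2.62 and 1.95. Ppp1r1a, an inhibitor of protein phosphatase, fell by 2.90 and 2.10. Per 100 FPKM of Slc12a1 in the same library, Cldn16 stood at 5.42 to 12.2 FPKM in Acot12+/+ CL and 35.1 to 42.3 FPKM in Acot12+/+ UUO, and at 3.93 to 15.4 FPKM in Acot12-/- CL and 29.9 to 37.0 FPKM in Acot12-/- UUO libraries. Cldn19 stood at 8.46 to 14.7 FPKM and 52.1 to 72.1 FPKM per 100 FPKM of Slc12a1 in Acot12+/+ CL and UUO, and at 2.42 to 28.8 FPKM and 42.6 to 65.9 FPKM in Acot12-/- CL and UUO libraries. Neither pair of ranges overlapped. Slc12a1 fell by more than the median of its list in both genotypes, so the size of these shifts depends on the reference gene. No other marker of the segment was used as the reference. The balance of Cldn16 to Cldn19 was close in most libraries, at 52.5 to 82.9 FPKM of Cldn16 per 100 FPKM of Cldn19 in 11 libraries and 162 in Acot12-/- CL replicate 2.

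For Cldn10 the same measure overlapped between the sides. It stood at 134 to 247 FPKM per 100 FPKM of Slc12a1 in Acot12+/+ CL and 240 to 317 FPKM in Acot12+/+ UUO libraries. In Acot12-/- libraries the ranges were 112 to 442 FPKM in CL and 203 to 266 FPKM in UUO.

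**Figure D4:**
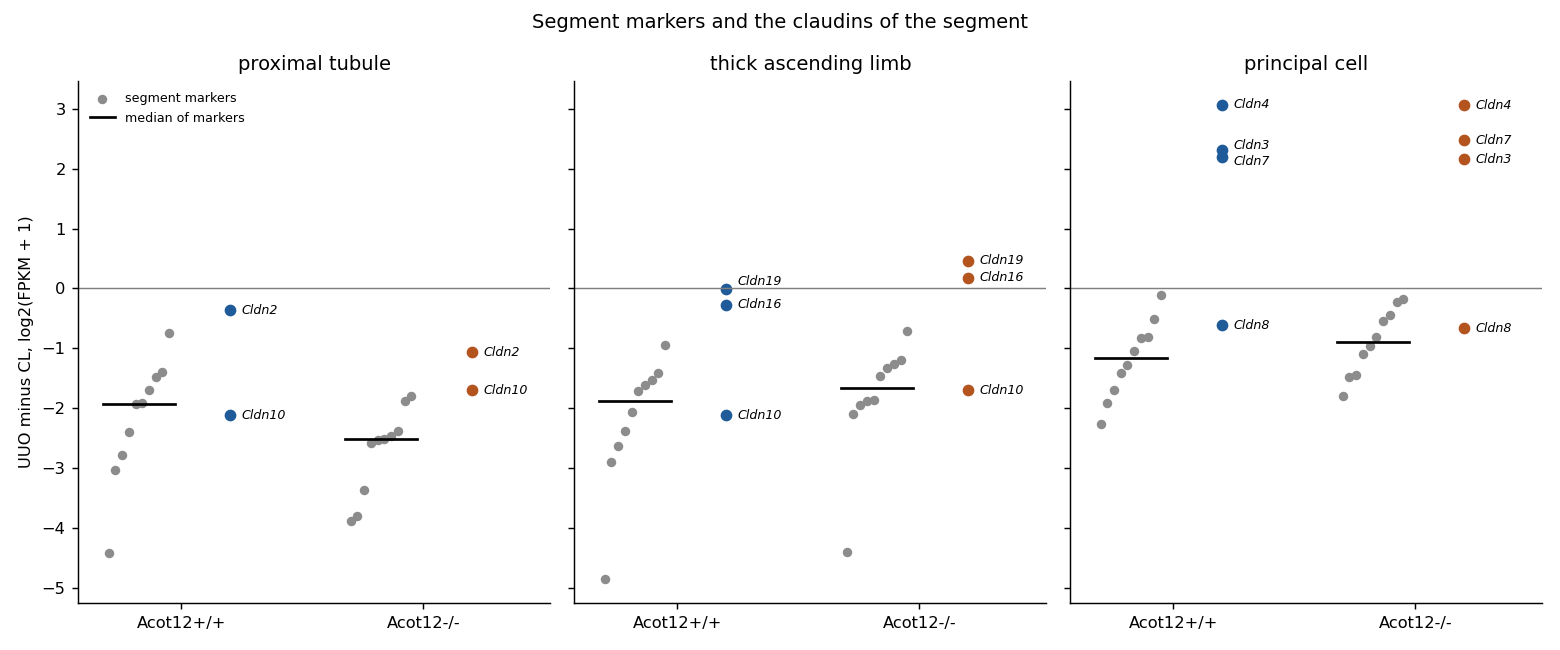
Log2 difference between UUO and CL kidneys for the markers of 3 nephron segments (grey points, black line for their median) beside the claudins of the segment (blue in Acot12+/+, brown in Acot12-/-). Cldn16 and Cldn19 lie above all 10 markers of the thick ascending limb and Cldn3, Cldn4 and Cldn7 above all 10 principal cell markers in both genotypes, while Cldn10 lies among the markers of the proximal tubule and thick ascending limb in Acot12+/+ kidneys.

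Cldn14, which blocks the pore of Cldn16 and Cldn19, was barely present in CL kidneys. It read 0.072 and 0.079 FPKM in 2 Acot12+/+ CL libraries, about 1 fragment each, and was listed at 0 in the third. Of the Acot12-/- CL libraries 1 read 0.065 FPKM, also about 1 fragment, and 2 listed it at 0. In UUO libraries it read 0.974, 0.826 and 2.95 FPKM in Acot12+/+ and 1.56, 0.420 and 1.96 FPKM in Acot12-/- mice, which is about 9 to 81 fragments. The sides did not overlap and the limma adjusted p was 0.00532 in Acot12+/+ and 0.00704 in Acot12-/- kidneys. Cldn14 passed the filter on low values through UUO libraries alone, so neither is support for a rise. The fitted log2 difference also depended on the pseudocount, so no fold is given. Casr, the calcium-sensing receptor that controls Cldn14 in the thick ascending limb, fell by 0.65 in Acot12+/+ and by 1.00 in Acot12-/- kidneys. Casr is named here after its values were seen.

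The make-up of the claudin transcripts thus differed between the sides. Cldn2 and Cldn10 together held 75.7% to 83.1% of the summed FPKM of the 10 genes in wild-type CL libraries, against 33.9% to 38.3% after UUO. Cldn1, Cldn3, Cldn4 and Cldn7 held 6.41% to 9.93% of it in wild-type CL libraries, against 51.0% to 54.9% after UUO. In Acot12-/- mice the first pair held 80.3% to 81.6% in CL and 32.0% to 42.3% in UUO libraries, and the other set held 4.80% to 9.80% and 46.2% to 60.2%. The summed FPKM of the 10 genes differed less between the sides, with 616 to 700.1 FPKM in CL and 546 to 583 FPKM in UUO libraries of Acot12+/+ mice, and 594 to 742 FPKM and 539 to 573 FPKM in those of Acot12-/- mice. Shares of a sum are linked, so that a gain of some members lowers the share of the others.

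**Figure D5:**
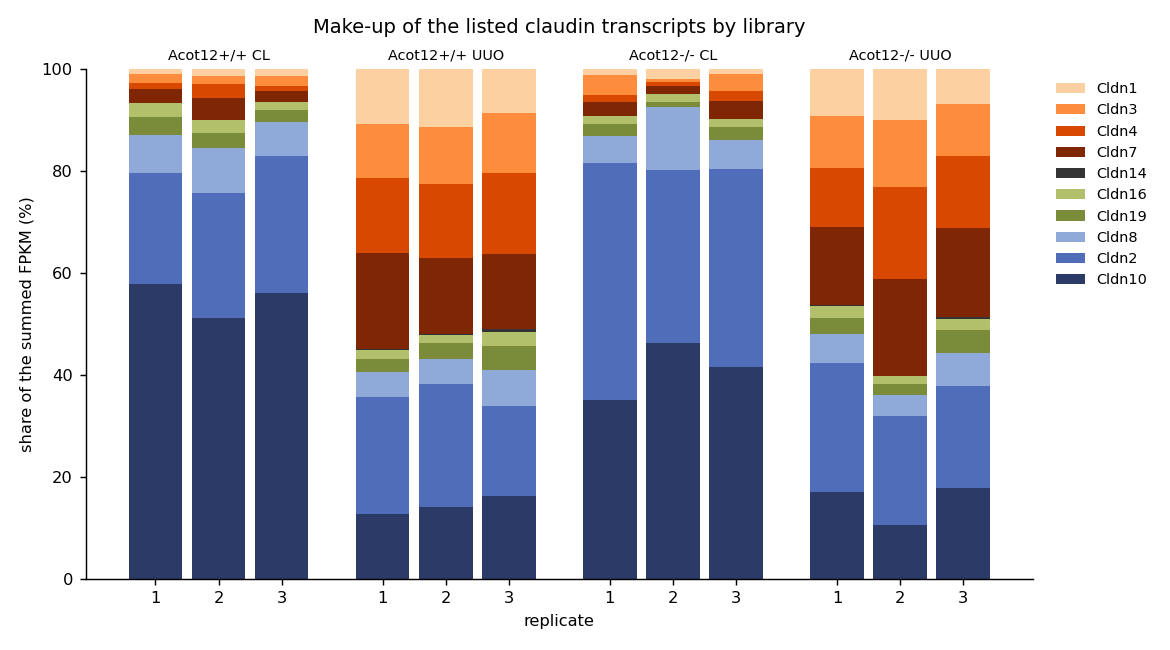
Share of each claudin in the summed FPKM of the 10 genes (%), 1 bar per library. Blue (Cldn10, Cldn2 and Cldn8) fills most of the CL bars, and the brown to orange colours (Cldn7, Cldn4, Cldn3 and Cldn1) fill 46.2% to 60.2% of the UUO bars.

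Between genotypes, no claudin was called in the obstructed kidneys, where 0.0151% of all genes tested were called. The log2 differences between Acot12-/- UUO and Acot12+/+ UUO ran from -0.27 (Cldn1) to 0.07 (Cldn7), none had an unadjusted p under 0.05, and the libraries of the genotypes overlapped for all 10 members. The 95% intervals show what this comparison could have missed: that of Cldn2 ran from -0.33 to 0.38 and that of Cldn3 from -1.15 to 1.07.

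In CL kidneys 1 of the 10 claudins was called between genotypes, beside 4.48% of all genes. Cldn2 was higher in Acot12-/- CL kidneys at 261 ± 36.1 FPKM (SD, n = 3) against 157 ± 8.62 FPKM, all 3 libraries lay above all 3 of Acot12+/+ CL, and the log2 difference was 0.73 (SE 0.16, adjusted p = 0.0284). The call is not firm. It was lost when any 1 of the Acot12+/+ CL libraries, Acot12+/+ UUO replicate 1 or Acot12-/- CL replicate 1 or 3 was left out, with adjusted p from 0.0506 to 0.112. It was also lost when libraries were scaled to an equal total (adjusted p = 0.0853) and when the fit held only the groups compared (adjusted p = 0.141). The difference itself stayed between 0.65 and 0.84 in all 21 settings tried. Of the 10 proximal tubule markers, 9 were higher in Acot12-/- CL kidneys with a median log2 difference of 0.57, 3 had an unadjusted p under 0.05 and none was called, and their sum was 2064 to 2636 FPKM in Acot12+/+ CL and 2594 to 4269 FPKM in Acot12-/- CL libraries. In the same comparison 5 of 7 endothelial, 3 of 7 macrophage and 2 of 7 fibroblast markers were called lower, and their sums were 136 to 227, 133 to 149 and 136 to 177 FPKM in Acot12+/+ CL against 47.3 to 74.2, 46.3 to 103 and 46.9 to 108 FPKM in Acot12-/- CL libraries. The part of proximal tubule and of these other cells in the Cldn2 result was not tested.

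Cldn10 lay lower in all 3 Acot12-/- CL libraries than in any Acot12+/+ CL library but did not pass the test (-0.40, adjusted p = 0.426). Without Acot12-/- CL replicate 2, Cldn3 was also called higher in Acot12-/- CL kidneys, at 0.96 (adjusted p = 0.00336), against 0.11 with that library. The change with UUO was not called different between genotypes for any of the 10 claudins, beside 0.106% of all genes called. Cldn2 came nearest with an interaction of -0.70 (limma unadjusted p = 0.0105, adjusted p = 0.254). It was the 1 member of 10 with an unadjusted p under 0.05. Of all 13243 genes tested, 1389 had such a p, so that count is near the background. Without Acot12-/- CL replicate 2 the interaction was called for Cldn2 (-0.82, adjusted p = 0.0337) and Cldn3 (-0.998, adjusted p = 0.0234).

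The files hold 21 other claudin symbols, and 18 of them were on the list followed here. Of these 18, 6 passed the filter on low values and were tested. In Acot12+/+ kidneys 2 were called higher and 1 lower, and in Acot12-/- kidneys 4 higher and 1 lower, beside 23.6% and 23.9% and 26.6% and 27.2% of all genes, and the Acot12+/+ counts are near those shares. Cldn6, a claudin of embryonic epithelia, read 0.946 to 1.34 FPKM in Acot12+/+ CL and 6.94 to 9.30 FPKM in Acot12+/+ UUO libraries and rose by 2.02 (adjusted p = 1.99e-06) there and by 1.76 in Acot12-/- kidneys. Cldn23 rose by 1.12 and 1.07 from 0.60 FPKM or less in all CL libraries. Cldn23 passed the filter on low values through UUO libraries alone, so its call is no support for a rise of other claudins. Cldn34c1 was not called (0.47 and 0.24). Cldn12, which takes part in calcium transport with Cldn2, fell by 0.49 (adjusted p = 0.0381) in Acot12+/+ and 0.73 in Acot12-/- kidneys, and was not called under equal total FPKM. Cldn15, a cation pore best known from the intestine, read 9.54 to 10.1 FPKM in Acot12+/+ CL and 6.65 to 7.95 FPKM in Acot12+/+ UUO libraries (-0.39, adjusted p = 0.174), and 2.93 to 6.50 against 6.74 to 11.4 FPKM in Acot12-/- libraries, where it rose by 0.73 (adjusted p = 0.0177). Between genotypes it was lower in Acot12-/- CL kidneys, at -0.96 (adjusted p = 0.0341). Cldn5, the claudin of endothelium, was called higher in Acot12-/- kidneys alone (1.15, adjusted p = 0.0177, against 0.30, adjusted p = 0.522), and that difference between genotypes was not called (interaction 0.85, adjusted p = 0.658). Without Acot12-/- CL replicate 2, which read 3.31 FPKM against 6.31 and 15.4 FPKM in the other libraries of its group, the Acot12-/- difference of Cldn5 was 0.70 and no longer called (adjusted p = 0.0506). Of 7 endothelial markers, 4 were called higher in Acot12-/- kidneys, and 1 higher and 3 lower in Acot12+/+ kidneys. Their sum in Acot12-/- mice was 47.3 to 74.2 FPKM in CL and 133 to 173 FPKM in UUO libraries. Acot12-/- CL replicate 2 had the lowest Cldn5 of its group but the highest marker sum, as did Acot12+/+ CL replicate 3 in its group. The part of endothelium in the result was not tested.

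The proteins that hold claudins in place were called in both directions. Of 25 tight junction partners tested, 10 were called higher and 3 lower in Acot12+/+ and 11 higher and 6 lower in Acot12-/- kidneys, with medians of 0.20 and 0.13, beside 23.6% higher and 23.9% lower and 26.6% and 27.2% of all genes. The count called lower in Acot12-/- kidneys is near its background. Under equal total FPKM the counts were 18 higher and 1 lower and 13 higher and 1 lower. Of all genes, 56.7% were then called higher and 7.7% lower in Acot12+/+ and 46.7% and 11.5% in Acot12-/- kidneys. The Acot12-/- count called higher is near its share. Lsr, which seals the corners where 3 cells meet, rose by 1.76 and 1.43, whereas Ildr2, of the same family, fell by 1.30 and 1.37. The scaffold gene Tjp3, whose product ties claudins to actin, rose by 1.09 and 1.08, and Amotl1, an angiomotin-like scaffold, rose by 0.67 and 1.82. Ocln, the gene of occludin, was not called (0.02 and -0.30) and is named after its values were seen.

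Of 15 genes whose products bind, cleave or degrade claudins, 6 were called higher and 7 lower in Acot12+/+ and 7 and 7 in Acot12-/- kidneys. Over all genes 23.6% were called higher and 23.9% lower in Acot12+/+ and 26.6% and 27.2% in Acot12-/- kidneys. The counts of the 15 became 8 and 0 and 8 and 5 under equal total FPKM. Of all genes, 56.7% were then called higher and 7.7% lower in Acot12+/+ and 46.7% and 11.5% in Acot12-/- kidneys. Both counts of the 15 called higher are near those shares. Cd9, a tetraspanin found with Cldn1, rose by 1.64 (adjusted p = 8.89e-05) and 1.38. St14, the protease matriptase, rose by 1.21 and 1.29, and Spint2, which inhibits it, rose by 1.74 and 1.28. Prss8, a protease of the collecting duct, fell by 1.05 and 1.37. The cell adhesion list of 7 genes had 4 called higher and 1 lower in Acot12+/+ and 2 higher and 1 lower in Acot12-/- kidneys. The Acot12-/- count called higher is near the share of all genes, and both counts called lower are below theirs. Cdh6, a cadherin of the proximal tubule, rose by 1.31 and 1.34, and Cdh1, the gene of E-cadherin, rose by 0.57 and 0.41. Cdh16, the kidney-specific cadherin, fell by 0.66 and 0.81. Under equal total FPKM 6 of the 7 were called higher and none lower in each genotype, beside 56.7% and 46.7% of all genes called higher.

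Among 15 transcription factors of epithelia, 4 were called higher and 4 lower in each genotype, which is near the 23.6% and 23.9% of all genes in Acot12+/+ and the 26.6% and 27.2% in Acot12-/- kidneys and so says nothing of the list. Under equal total FPKM 9 of the 16 then tested were called higher and 1 lower in Acot12+/+ and 8 higher and 3 lower in Acot12-/- kidneys. The counts of the list called higher are near the 56.7% and 46.7% of all genes under that scaling. Of its members, Elf3 (2.06 and 1.66), Klf5 (1.37 and 1.63) and Klf4 (1.18 and 1.57) rose, Esrrb, a nuclear receptor of the thick ascending limb, fell by 1.43 and 1.42, and Hnf4a, a factor of the mature proximal tubule, fell by 1.17 and 1.60. Of 5 factors of epithelial-mesenchymal transition tested, among them the Snai and Zeb factors that bind CAGGTG, 3 were called higher in Acot12+/+ and 5 in Acot12-/- kidneys. The shares of all genes called higher were 23.6% and 26.6%. Snai1 rose by 0.74 (adjusted p = 0.00134) and 1.82 (adjusted p = 2.16e-06), Twist1 by 0.93 and 1.24 and Zeb2 by 0.64 and 1.22. Snai1 and Zeb1 were also called lower in Acot12-/- CL than in Acot12+/+ CL kidneys, with log2 differences of -0.79 and -0.63. All 5 factors tested had a negative log2 difference in that comparison, with a median of -0.63. Fibroblasts express such factors too: 6 of 7 fibroblast markers were called higher in Acot12+/+ and 7 of 7 in Acot12-/- kidneys, their sum was 46.9 to 177 FPKM in CL and 338 to 499 FPKM in UUO libraries, and their part in the result was not tested.

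Each claudin called in both genotypes had near neighbours in profile, measured as the root mean square difference of centred log2(FPKM + 1) values over the 12 libraries among genes of at least 5 FPKM. The nearest to Cldn10 were Tmigd1 (0.15), Ndufb5 (0.16) and Acyp2 (0.19), those to Cldn7 were Sbno2 (0.19), Tap2 (0.21) and Mvp (0.23), and those to Cldn1 were Smpdl3b (0.19), Slc25a24 (0.24) and Birc3 (0.25). Cldn4 was nearest to Sfn (0.25), Socs3 (0.25) and Ctxn1 (0.26). The neighbours of Cldn3, Serinc2 and Nfkb2 among them, lay farther away at 0.38 or more, and those of Cldn14 (Nrep, Cyp2s1 and Prr15) at 0.30 to 0.32.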

How the data were processed

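RNA of kidney cortex was measured in 12 libraries, 3 per group, made with a kit that keeps the strand. The authors deposited a single FPKM value per gene and library; trimming, mapping and normalisation were done by a service provider, the submitters' processing notes name mm10 and edgeR without their roles, and the aligner is not given in the sources used here. That the values are FPKM was read from their steps, which also gave the depth of each library, with the limit given above.

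Values were analysed as log2(FPKM + 1), a scale that understates the change of low genes, in genes with at least 1 FPKM in at least 3 libraries, and 28 genes listed at 0 in a library beside at least 10 FPKM in another of its group were left out. All 4 groups entered 1 limma fit (limma 3.58.1 in R 4.3.3, variance trend, Benjamini-Hochberg adjustment, two-sided), with contrasts of UUO and CL in each genotype and over both, of genotype in each kidney, and their interaction. The test was first tried on simulated data. Python 3.11.15, pandas 2.3.3, numpy 2.4.6 and matplotlib 3.10.9 made the summaries and plots.

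The named genes were the 10 claudins, other claudins with a mean of at least 1 FPKM in a group, at most 4 called members per list and comparison by size, Acot12, and the 3 genes nearest in profile to each claudin called in both genotypes. A few genes that this rule would name are not reported here. The members and lists were chosen with earlier results of these data known. Deviations from the group means correlated between CL and UUO libraries of the same number at r = 0.134 to 0.364 in Acot12+/+ and 0.186 to 0.322 in Acot12-/- mice. Between libraries of different numbers r was -0.363 to 0.139 in Acot12+/+ and -0.177 to -0.0748 in Acot12-/- mice. As a hint from the data, the number was taken to pair libraries in the pair counts and the replicate block. The main fit did not use the pairs. In 20 alternative fits the pseudocount (0.1), the filter, the genes listed at 0, the scaling, the variance trend, the samples in the fit, a replicate block and each library were changed in turn.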

Additional observations from a re-analysis of the deposited data

Results flagged for a closer look

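Cldn15 stood out because it was lower with UUO in all 3 pairs of libraries in Acot12+/+ mice and higher in all 3 pairs in Acot12-/- mice. The interaction, Acot12-/- minus Acot12+/+ of the UUO minus CL difference, was 1.12 on the log2 scale (SE 0.32, limma unadjusted p = 0.00458, adjusted p = 0.174). In Acot12+/+ mice all 3 UUO libraries (6.65 to 7.95 FPKM) lay below all 3 CL libraries (9.54 to 10.1 FPKM), and in Acot12-/- mice all 3 UUO libraries (6.74 to 11.4 FPKM) lay above all 3 CL libraries (2.93 to 6.50 FPKM). The result does not pass the adjustment, and 1389 of all 13243 genes tested had an unadjusted interaction p under 0.05.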

How the results depend on the processing

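Cldn1, Cldn3, Cldn4, Cldn7 and Cldn10 kept their direction and their call in each genotype in all 21 settings, as did Cldn2 in Acot12-/- kidneys (-1.18 to -0.52). The number of members called with UUO stayed at 6 to 8 in Acot12+/+, 7 to 8 in Acot12-/- and 8 over both genotypes when 1 library was left out. Between genotypes in CL kidneys the count of 1 became 0 under equal total FPKM and 0 with only the groups compared, and ran from 0 to 2 without 1 library; the interaction count ran from 0 to 2, with 2 without Acot12-/- CL replicate 2. In UUO kidneys the count stayed at 0.

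Equal total FPKM turned the Acot12+/+ differences of Cldn2 (0.36), Cldn8 (0.10), Cldn16 (0.41) and Cldn19 (0.69) and that of Cldn16 over both genotypes (0.55, adjusted p = 0.00762), following the shift of the median gene. Values near 0 also turned without 1 library: Cldn19 in Acot12+/+ mice, which ran from -0.26 to 0.18, to 0.18 (without CL replicate 1), 0.17 (UUO replicate 1) and 0.06 (UUO replicate 2), and Cldn16 over both, which ran from -0.13 to 0.064, to 0.064 and 0.0084 (without Acot12+/+ CL replicate 1 or 2), 0.02 and 0.05 (Acot12+/+ UUO replicate 1 or 2) and 0.01 (Acot12-/- UUO replicate 2); the cause was not tested. Cldn2 and Cldn8 were called lower in Acot12+/+ kidneys with only the groups compared (adjusted p = 0.0281 and 0.0239) and without Acot12-/- CL replicate 2 (0.0257 and 0.0315), and Cldn8 in Acot12-/- kidneys without CL replicate 1 (-0.94, adjusted p = 0.0264).

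With the replicate block, which pairs libraries by number, 6, 7 and 8 members were called with UUO in Acot12+/+, in Acot12-/- and over both genotypes, Cldn2 stayed called between genotypes in CL kidneys (adjusted p = 0.0297), and no call of a member changed. The depth read from the steps was lower in CL libraries. Cldn14 stood there at about 1 fragment or none, and whether fewer fragments were sequenced is not known.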
